A study of Homo sapiens with 84 samples.

Results

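SUM-149PT is an established triple-negative breast cancer cell line, grown from a primary inflammatory breast carcinoma, and its chromatin accessibility without drug is described here. The material was the 3 DMSO ATAC-seq libraries of SUM-149PT, set against 23 DMSO libraries of 8 other triple-negative lines (BT-20, BT-549, HCC1143, HCC1395, HCC1937, MDA-MB-231, MDA-MB-468 and SUM-159PT), out of 78 libraries with counts. The study treated triple-negative lines with tazemetostat, an inhibitor of the histone methyltransferase EZH2, with ipatasertib, an inhibitor of the kinase AKT, or with both. DMSO is the vehicle, so every library compared here is a vehicle library, from cells in medium with 2% FBS collected 24 h after the last treatment. Each library came from 50000 cells by the Omni-ATAC protocol, in which the Tn5 transposase cuts open DNA in isolated nuclei and the cut fragments are sequenced. The schedule of repeated seeding in DMSO is spelled out in the design text for MDA-MB-468, and the labels give no other schedule. HCC1395 DMSO replicate 3 was left out, because it stood apart from the other HCC1395 replicates.

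Accessibility is read here at 3 scales, because a count in a peak depends both on how open a site is and on how many copies of it a cell carries. Cancer cell lines carry gains and losses of whole chromosome arms, which move every peak of a region together, and small deletions, which empty a run of neighbouring peaks. Opening or silencing of a regulatory element moves 1 peak or a few. No DNA copy number was measured in these data, so at the broad scale fewer or more copies and less or more opening per copy cannot be told apart. As background, inflammatory breast cancer spreads through the lymphatic vessels of the skin as tight clusters of cells that keep E-cadherin, and SUM-149PT is known as a basal-like, BRCA1-mutant model of it.

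Promoter sequences are shown for 4 genes on which the single-locus results turn. PTGS2 had its highest count in SUM-149PT, and LNPEP, STK11 and ZNF583 had starts that were near empty in SUM-149PT and open in every other line. The sequences are from RefSeq on GRCh38.p14, 250 bases before the gene's start, 5′ to 3′ on the gene's strand. In the PTGS2 sequence (chr1:186680424-186680673, minus strand) the capitals mark a C/EBP-type match, the TGACG part of a cAMP response element read on the opposite strand, and a TATA box. In the LNPEP (chr5:96935830-96936079, plus strand), STK11 (chr19:1205528-1205777, plus strand) and ZNF583 (chr19:56403764-56404013, plus strand) sequences the capitals mark CpG dinucleotides, the sites of DNA methylation, which was not measured here.
PTGS2: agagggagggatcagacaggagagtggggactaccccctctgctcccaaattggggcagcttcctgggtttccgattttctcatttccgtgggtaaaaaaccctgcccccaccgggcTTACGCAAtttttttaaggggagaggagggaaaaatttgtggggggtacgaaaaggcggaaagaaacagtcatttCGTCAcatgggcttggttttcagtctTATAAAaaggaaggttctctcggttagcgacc
LNPEP: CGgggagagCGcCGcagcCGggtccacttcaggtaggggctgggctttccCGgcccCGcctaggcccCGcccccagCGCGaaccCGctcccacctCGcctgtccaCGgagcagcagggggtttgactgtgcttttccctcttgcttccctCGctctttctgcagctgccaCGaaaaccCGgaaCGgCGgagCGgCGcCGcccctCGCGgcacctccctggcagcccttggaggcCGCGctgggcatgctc
STK11: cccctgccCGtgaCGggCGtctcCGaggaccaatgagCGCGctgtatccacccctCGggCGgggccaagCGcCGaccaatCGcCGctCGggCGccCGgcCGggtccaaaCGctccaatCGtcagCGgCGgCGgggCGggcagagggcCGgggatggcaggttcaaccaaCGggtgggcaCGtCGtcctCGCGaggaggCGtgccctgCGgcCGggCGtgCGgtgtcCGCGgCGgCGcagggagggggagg
ZNF583: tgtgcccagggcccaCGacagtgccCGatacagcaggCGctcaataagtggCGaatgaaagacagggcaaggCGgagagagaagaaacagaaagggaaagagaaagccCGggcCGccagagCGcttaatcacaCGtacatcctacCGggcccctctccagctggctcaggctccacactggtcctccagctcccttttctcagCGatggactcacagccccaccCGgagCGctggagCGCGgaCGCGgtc
The motifs were searched on both strands as TGANTCA for AP-1, GGGNNTTCC for NF-kB, TTNNGCAA for C/EBP, TGACG for the cAMP response element and TATAAA for the TATA box. Among 35116 RefSeq promoter windows of the same length, 6.57% held the AP-1 letters, 5.78% the NF-kB letters, 9.05% the C/EBP letters, 21.2% the TGACG site and 10.7% the TATA box. In PTGS2 the C/EBP-type match began 133 bases, the TGACG site 58 bases and the TATA box 32 bases before the start. The LNPEP window held an NF-kB match that began 209 bases before the start, the STK11 window held TGACG sites 240 and 132 bases before it, and the ZNF583 window held none of the 5 motifs. The window of PTGS2 held 9 CpG dinucleotides, that of LNPEP 24, that of STK11 37 and that of ZNF583 17, against a median of 11 over all windows. A match is a description of the letters, not a bound site.

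The 3 SUM-149PT libraries held 17265766, 17167557 and 21459284 counts in peaks, and all DMSO libraries lay between 12292571 and 21459284. The share of counts within 1 kb of a gene start was 23.2 to 24.5% in SUM-149PT and 22.2 to 30.4% in the other lines. Replicates of SUM-149PT differed by less than sampling noise, with observed variances of 0.826 to 0.923 times that of counting alone, so the 3 libraries were summed and counted as 1 sample, as were those of each other line. Nothing in the labels says that they came from separate cultures. Values below are given for each SUM-149PT library and, for the other lines, as the lowest, the median and the highest of 8 line values in CPM, counts scaled to a common library size. Gene values are CPM in peaks within 10 kb of the gene's start and are scaled by TMM; single peak values are plain CPM.

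The label was checked against marker genes. CDH1, which encodes E-cadherin, had 98.6, 98.5 and 93.7 CPM in SUM-149PT, against 15.1, 36.5 and 124 CPM in the other lines. SUM-149PT was thus within the range of the panel and near its top. KRT5, a basal keratin, had 65.3, 66.5 and 67.1 CPM in SUM-149PT, against 5.14, 32.6 and 139 CPM in the other lines. KRT6A, a basal and stress keratin whose reads may be shared with its near copies, had 42.1, 40.7 and 41.6 CPM in SUM-149PT and 2.86, 20.7 and 44.9 CPM elsewhere. These keratins are 2 of 24 basal and myoepithelial genes tested, of which 14 had a log2 difference above 0 and 10 below 0. TP63, another of the 24, was lowest in SUM-149PT, as given below. ESR1, the oestrogen receptor gene, was low, at 0.773, 1.01 and 1.07 CPM in SUM-149PT against 0.868, 1.46 and 5.39 CPM in the other lines. The T cell marker CD3E had 6.31, 4.41 and 5.81 CPM in SUM-149PT against 1.69, 4.39 and 9.24 CPM, again within the panel's range. Neither the 14 immune nor the 15 endothelial markers tested held a called gene, and their median log2 differences were −0.08 and −0.58. Across 22634 genes, the line most like SUM-149PT in log2 CPM was HCC1937, with a Pearson r of 0.884, followed by HCC1395 and MDA-MB-468 with 0.858 each; BT-20 was the least like it, with 0.829. These correlations run across genes of lines that share the same peak set, and are a description.

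In the comparison of SUM-149PT with the 8 other lines, 6 of 22634 genes were lower and 0 were higher at an adjusted p under 0.05 (edgeR quasi-likelihood test, Benjamini-Hochberg), that is 0.0265% and 0%. At an unadjusted p under 0.05 there were 391 genes on the higher and 331 on the lower side, 1.73% and 1.46% of those tested, and DESeq2 called 29 higher and 94 lower. The lone SUM-149PT sample is assumed to vary like the other lines, and that spread was wide, with a biological coefficient of variation of 0.551 for genes. In simulated data on the same 22634 genes, this test called 72% of genes raised by 3 on the log2 scale and 20% of genes lowered by 3, but 98% of genes lowered by 6. So the test reached genes that were close to empty in 1 line and open in the rest, and not graded losses. The simulation gave all genes the same spread and changed none of the weaker genes. Real genes differed in spread, so these shares, the 72% among them, may be too high for weak genes or genes that vary more between lines. The median log2 difference over all genes was −0.10. SUM-149PT was the highest of the 9 lines in 2126 genes (9.39%) and the lowest in 2208 genes (9.76%), which are the shares read beside every gene list below. It exceeded the highest other line by more than 2 times in 116 genes; the same count for each of the other lines ran from 45 to 329.

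All 6 called genes were close to empty in SUM-149PT. LNPEP, the insulin-regulated aminopeptidase, had 0, 0.119 and 0.0484 CPM in SUM-149PT against 46.2, 55.3 and 64.4 CPM in the other lines (adjusted p = 4.6e-05, edgeR quasi-likelihood). CBARP, a regulator of voltage-gated calcium channels, had 0, 0 and 0.0484 CPM in SUM-149PT against 11.7, 16.1 and 29.7 CPM (adjusted p = 0.0181). TUSC1, a tumour suppressor candidate on 9p, had 0, 0 and 0.0484 CPM in SUM-149PT against 12.5, 24.4 and 46.4 CPM (adjusted p = 0.0227). In none of these did the groups come near each other, and the fitted fold changes rest on 1 to 3 counts and are not given. The other called genes held a few more counts. C9orf72, known for the repeat expansion behind inherited motor neuron disease, had 1.07, 0.357 and 0.775 CPM in SUM-149PT against 17.0, 25.6 and 37.4 CPM, a log2 difference of −5.14 ± 0.57 (SE, adjusted p = 0.0227). The log2 difference was −5.59 ± 0.69 for CAAP1, an apoptosis inhibitor (adjusted p = 0.0306), and −4.53 ± 0.55 for IFT74, a part of the transport machinery of cilia (adjusted p = 0.0306). TUSC1, C9orf72, CAAP1 and IFT74 lie within 2 Mb of each other on 9p, so the 6 calls come from 3 places in the genome. LNPEP was called under every alternative tried, while CBARP was lost without HCC1937 (adjusted p = 0.0713). The calls of the 4 genes of 9p were lost when BT-20, HCC1395, HCC1937 or MDA-MB-468 was left out, at adjusted p of 0.0513 to 0.096; CAAP1 and IFT74 were also lost without MDA-MB-231 (0.0927 each) or SUM-159PT (0.0533 each). With only 4 epithelial lines as the panel, LNPEP was called and the other 5 genes were not.

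When each gene was also set against the peaks 100 kb to 5 Mb around it, 2 of these genes, LNPEP (adjusted p = 1.1e-05) and CBARP (adjusted p = 0.0013), were called again, and the 4 genes of 9p were not. This is 0.00884% of the genes tested. The same fit added NUDT12 with a log2 difference of −5.52 (adjusted p = 0.0221), which the fit without regional values left at an adjusted p of 0.0577. It also added LOC107984963, an uncharacterised transcript, which was the one gene called higher: it had 13.4, 13.2 and 14.8 CPM in SUM-149PT against 0.53, 0.96 and 1.89 CPM in the other lines, a log2 difference of 4.07 (adjusted p = 0.0221, and 0.0793 without regional values).

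The broad scale was read in 2583 bins of 1 Mb. Of these, 696 bins (26.9%) lay in 61 blocks in which at least 5 neighbouring bins were shifted one way, 36 blocks of 449 bins on the higher and 25 blocks of 247 bins on the lower side. The same rule applied to each other line placed 24.1 to 39.0% of bins in blocks, so SUM-149PT had one of the smaller shares of the panel. All 61 blocks had the same sign in each of the 3 DMSO libraries and in the SUM-149PT libraries treated with both drugs. The 3 libraries of a block differed by at most 0.139. The blocks were defined on the sum of these 3 DMSO libraries, so the agreement among them is built in and is a description. SUM-149PT was the most extreme of the 9 lines in 36 of the 61 blocks, which were picked for a shift in SUM-149PT.

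**Figure D1:**
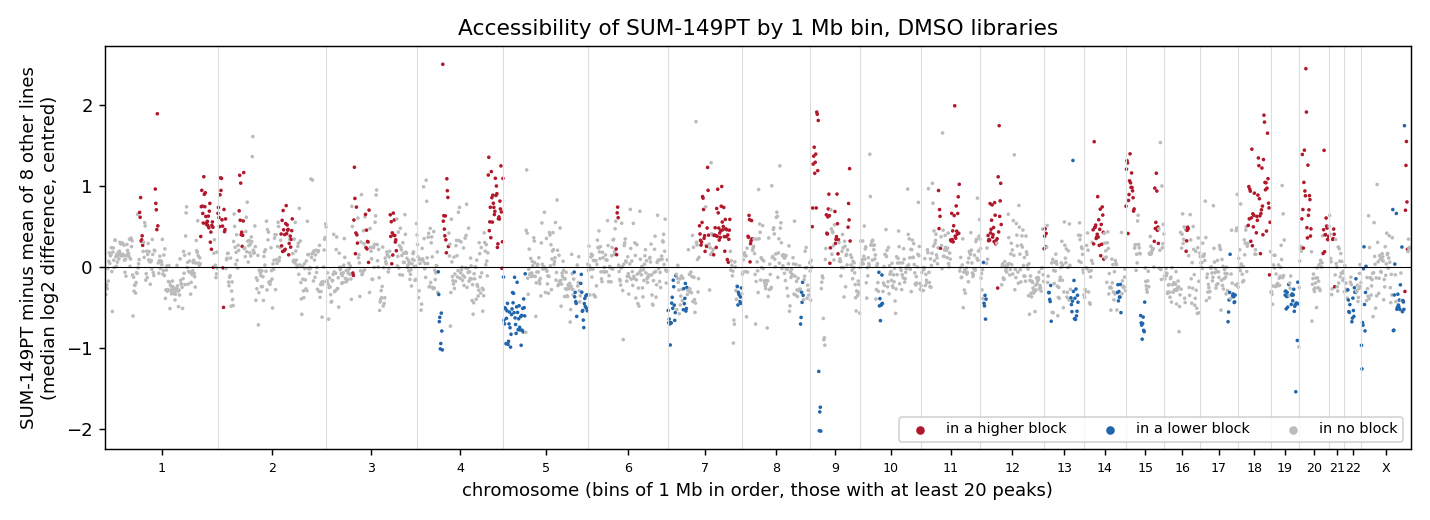
Median log2 difference in accessibility between SUM-149PT and the mean of 8 other lines in 1 Mb bins along the genome, DMSO libraries; coloured points are bins in blocks. The tallest block on the higher side (1.29) and the lowest block (−1.79) adjoin each other on the short arm of chromosome 9.

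The block furthest up ran from 5 to 21 Mb of chromosome 9, with a median log2 difference of 1.29. It was followed by 22 to 41 Mb of chromosome 15 at 0.98, 6 to 25 Mb of chromosome 20 at 0.83, 46 to 80 Mb of chromosome 18 at 0.82, 140 to 151 Mb of chromosome X and 101 to 108 Mb of chromosome 1 at 0.75 each, and 159 to 190 Mb of chromosome 4 at 0.73. On the lower side, 21 to 28 Mb of chromosome 9 stood at −1.79, 55 to 64 Mb of chromosome 15 at −0.70, 46 to 58 Mb of chromosome 4 at −0.67, 0 to 45 Mb of chromosome 5 at −0.60, 0 to 13 Mb of chromosome X at −0.575 and 0 to 17 Mb of chromosome 7 at −0.55. Chromosome 18 had 62.1% of its bins in blocks and chromosome 7 56.8%, while chromosome 6 had 3.15%.

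The peaks of each block were also split by strength. Both kinds of peak entered the medians that define a block, so a shared sign is largely built in and is a description. The median over weak peaks (mean below 1 CPM) and that over strong peaks (at least 2 CPM) had the same sign in 60 of 61 blocks. In the higher block of chromosome 9 the weak peaks stood at 0.96 and the strong peaks at 1.66; in the adjoining lower block they stood at −1.42 and −2.83. The ratio of strong to weak had a median of 1.92 over blocks, and part of that gap comes with the pseudocount of 0.25 CPM, which shrinks the difference of weak peaks by construction. Across 1745 bins with both kinds, the 2 medians had a Pearson r of 0.791, given as a description since neighbouring bins share a region.

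**Figure D2:**
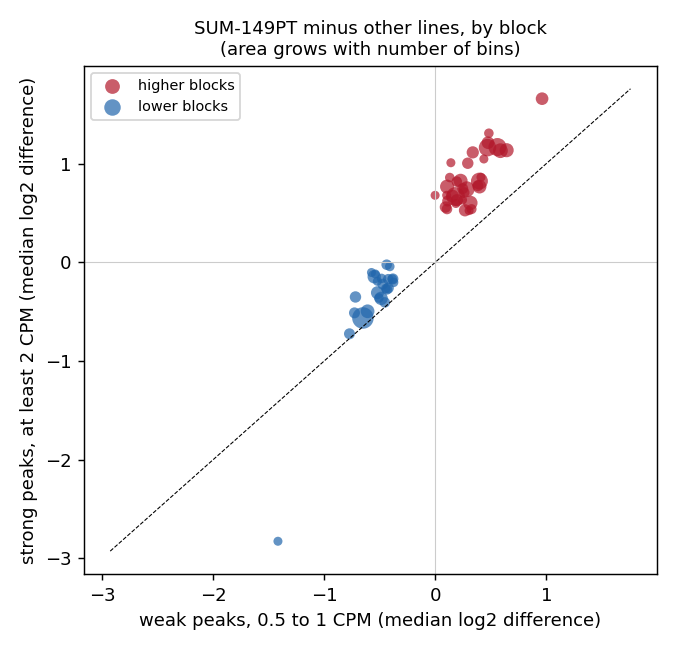
Median log2 difference (SUM-149PT minus the mean of 8 other lines) over strong peaks against that over weak peaks, 1 point a block. In 60 of 61 blocks the 2 values have the same sign. Both kinds of peak also entered the definition of the blocks.

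Many genes that stood out in SUM-149PT lay in such blocks. Of the 2126 genes in which SUM-149PT was the highest line, 43.7% lay in higher blocks, against 12.9% of all genes tested, and of the 2208 genes in which it was the lowest, 31.9% lay in lower blocks, against 10.65% of all. Blocks and genes are made from the same counts, so these shares are a description. The median log2 difference of the highest genes was 0.82, and 0.56 with regional values. Several genes often read as lineage or cancer genes belong here. DSG3, a desmosomal cadherin of basal cells, had 27.8, 27.3 and 27.5 CPM in SUM-149PT against 0.62, 6.22 and 11.7 CPM, and lay in the higher block of chromosome 18. Its log2 difference of 2.11 was 1.54 after the regional value was taken out. PTPRD, a receptor phosphatase gene within the higher block of chromosome 9, had 20.3, 20.4 and 20.1 CPM in SUM-149PT against 0.79, 8.68 and 13.1 CPM, and its log2 difference of 1.48 was 0.30 with regional values. OVOL2, which encodes a repressor of mesenchymal genes and lies in the block of chromosome 20, had a log2 difference of 1.25 that was 0.46 with regional values. KIT, the receptor of stem cell factor and a luminal progenitor marker, had 8.51, 7.27 and 8.43 CPM in SUM-149PT against 12.8, 19.4 and 33.4 CPM. SUM-149PT was the lowest line for KIT, but the gene lies in the lower block of chromosome 4 and its log2 difference of −1.31 was −0.51 with regional values. None of these genes passed the test across all genes.

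At the next scale, SUM-149PT held runs of neighbouring peaks that were almost without counts. A near-empty run was defined, after the data were seen, as at least 5 consecutive peaks with at most 3 counts each over the 3 libraries and at most 2% of the count set by the mean of the other lines. That expected count had to be at least 200. Some of these limits are in raw counts, so the number of runs depends on the depth of a line. SUM-149PT had 23 such runs holding 1240 peaks, against 5 to 22 runs holding 153 to 3275 peaks in each of the other lines. Of the 23 runs, 15 lay on 9p, within 1 gap that peaks of more than 3 counts split into runs. The number of runs is thus not a number of separate places.

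The gap on 9p had 2 zones. The inner zone, chr9:21543919-26243994, spanned 4.7 Mb with 718 peaks, of which 699 had 0 counts in SUM-149PT, and the 3 libraries held 1, 4 and 18 counts in all. That was 0.0748% of the mean of the other lines, whose zone sums were 37.7, 532 and 1311 CPM. MDA-MB-231 and SUM-159PT were also low here, at 6.04% and 17.0% of the mean. The inner zone holds MTAP, which encodes an enzyme of methionine salvage, the cell cycle inhibitor gene CDKN2B with its antisense gene, the transcription factor gene DMRTA1, the RNA-binding protein gene ELAVL2, and TUSC1. CDKN2B had 0 counts in all 3 SUM-149PT libraries, against 0, 0.34 and 29.8 CPM in the other lines, so it was listed at 0 in SUM-149PT and in at least 1 other line.

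The outer zone, chr9:26243995-29692421, spanned 3.45 Mb and kept a low level of counts, unevenly spread: 568 of its 730 peaks had 0 counts. Together the peaks held 238, 197 and 321 counts in the 3 libraries, which was 3.05, 2.54 and 3.31% of the mean of the other lines. The 9 drug-treated SUM-149PT libraries lay between 2.73 and 3.72%. Weak peaks stood at 2.26% and strong peaks at 3.42%. The zone holds the called genes CAAP1, IFT74 and C9orf72, and also PLAA, TEK, MOB3B and LINGO2. Beside the gap, the next 1 Mb on the left was high, at 218% of the mean of the other lines (410.5 CPM in SUM-149PT against 37.9, 185 and 329 CPM), and the next 1 Mb on the right stood at 59.1%. The source of the counts left in the outer zone was not tested.

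**Figure D3:**
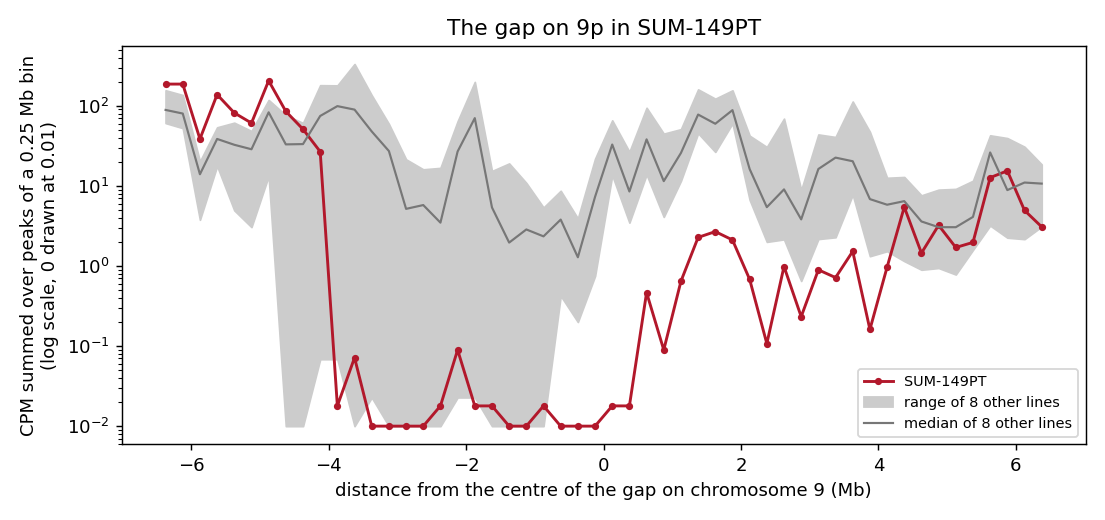
CPM summed over peaks in 0.25 Mb bins around the gap on 9p, log scale, for SUM-149PT (red) and the range and median of the 8 other lines (grey), by distance from the gap's centre. SUM-149PT runs above the median of the other lines to the left, drops to almost 0 over the inner zone (0.0748% of the mean), and lies at 2.99% of the mean over the outer zone.

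Outside 9p, 2 runs covered genes that the other 8 lines all kept open. RefSeq starts LNPEP at position 96936080 of chromosome 5. The LNPEP run, chr5:96925223-96944146, was 18.9 kb long with 9 peaks. It held 3 counts where 3179 were expected from the other lines. That was 0.0944%, with an exact 95% Poisson interval for counting error of 0.0195 to 0.276%. Nearly all of the expected count came from 1 peak, at the LNPEP start, with a median of 53.4 CPM in the other lines against 55.1 CPM for the whole run. The other peaks of the run had medians of only 0.0902 to 0.326 CPM in the other lines, so the percentage describes mainly the start peak. The peak at the LNPEP start, chr5:96934422-96937005, which holds the sequence printed above, had 0, 0.117 and 0.0466 CPM in SUM-149PT against 42.7, 53.4 and 72.3 CPM (adjusted p = 0.000928 among 264322 peaks, edgeR quasi-likelihood). The 10 peaks on the left of the run summed to 3.90 CPM in SUM-149PT against 2.86, 6.23 and 26.2 CPM, and those on the right to 2.58 CPM against 5.57, 9.58 and 21.2 CPM. The flanks thus held counts, on the left within the range of the other lines and on the right below it. Most of each sum came from 1 peak, of 2.13 CPM on the left and 1.74 CPM on the right. The peaks nearest the run were weak in SUM-149PT, at 0.412 CPM on the left and 0.161 CPM on the right.

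The second run, chr19:1203499-1238244, was 34.7 kb long and covered 2 neighbouring genes. STK11 encodes LKB1, the kinase that activates AMPK and a tumour suppressor. RefSeq places STK11 at chr19:1205778-1228431 and CBARP at chr19:1228287-1238502 on GRCh38.p14, so the run holds the whole of STK11 and nearly all of CBARP. The 15 peaks of the run held 3 counts where 3771 were expected, or 0.0796% with an interval of 0.0164 to 0.233%, and each other line had at least 42.0 CPM there. The peak that holds the RefSeq start of STK11, chr19:1205256-1206098, had 0, 0 and 0.0466 CPM in SUM-149PT against 10.3, 13.3 and 16.7 CPM (adjusted p = 0.0265, edgeR quasi-likelihood). The authors' annotation lists this peak in a 5′ UTR, 27.7 kb downstream of the start it assigns to STK11. The gene value of STK11 used here is summed around that upstream start, which lies outside the run: it was 83.5, 88.2 and 81.7 CPM in SUM-149PT against 69.99, 105 and 124 CPM, within the range of the panel. The value by gene thus did not show the run, and the values by peak did. The peaks on either side of this run were open. They summed to 31.3 CPM in SUM-149PT against 28.5, 38.9 and 58.9 CPM on the left, and to 86.8 CPM against 75.1, 117 and 170 CPM on the right.

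The remaining runs were shorter or shared with other lines. The run of 6 peaks over GSTM2 and GSTM1, glutathione transferases for which a deletion of GSTM1 is common in people, held 1 count where 350 were expected, and at least 1 other line was at 0. The run over ACOT1 and HEATR4 on chromosome 14 held 0 counts where 727 were expected, which allows up to 0.413% by 3 counts, and HCC1143 was at 0 there too. Other runs lay at LINC02428, TRG-AS1 and MSR1.

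Single promoters were then searched, by a rule made after the data were seen, for peaks within 1 kb of a gene start with at least 4 CPM in every other line and less than 1/8 of the lowest of them in SUM-149PT. Of 9132 such peaks, 13 (0.142%) met it, and the same search gave 4 to 50 peaks in each other line. The 13 included 6 in the gap on 9p (TUSC1, CAAP1, IFT74, IFT74-AS1, MOB3B and C9orf72) and LNPEP. They also included NUDT12, ZNF583, ZNF525 and LOC340090, for which the surroundings were examined.

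NUDT12, which encodes an enzyme that removes NAD caps from RNA, had 0.0579, 0.117 and 0.233 CPM at its start peak (chr5:103562114-103563345) in SUM-149PT, against 9.36, 12.2 and 22.5 CPM in the other lines. Weak peaks, here those with a mean below 2 CPM over the other lines, were summed from 2 to 100 kb around it. They held 22.4 CPM in SUM-149PT against 8.38, 11.4 and 20.6 CPM. The start was thus nearly empty in all 3 libraries, while the weak peaks around it still held counts. Their sum was above every other line, but the limit looks at the other lines only. Peaks high in SUM-149PT alone stay in, so the sum leans towards SUM-149PT by construction. The higher sum also does not hold for each peak. The peak at −56637 bases had 4.56 CPM in SUM-149PT against at most 1.27 CPM. The peak at 6664 bases had 0.197 CPM, within the 0.114 to 1.30 CPM of the other lines. The 9 treated SUM-149PT libraries had 0.110 to 0.515 CPM at the start. ZNF583, a KRAB-type zinc finger gene of chromosome 19, had 0.174, 0.408 and 0.373 CPM at its start peak (chr19:56403500-56405127), which holds the sequence printed above, against 4.60, 18.2 and 22.6 CPM in the other lines. Its weak neighbours summed to 1.65 CPM in SUM-149PT, within the 0.943 to 11.1 CPM of the other lines. ZNF525, another zinc finger gene of that chromosome, had 0.348, 0.291 and 0.280 CPM against 7.35, 14.7 and 18.3 CPM, with weak neighbours at 1.34 CPM against 1.15, 5.34 and 17.3 CPM. With so few counts around the zinc finger genes, their surroundings give less to set the starts against than those of NUDT12.

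**Figure D4:**
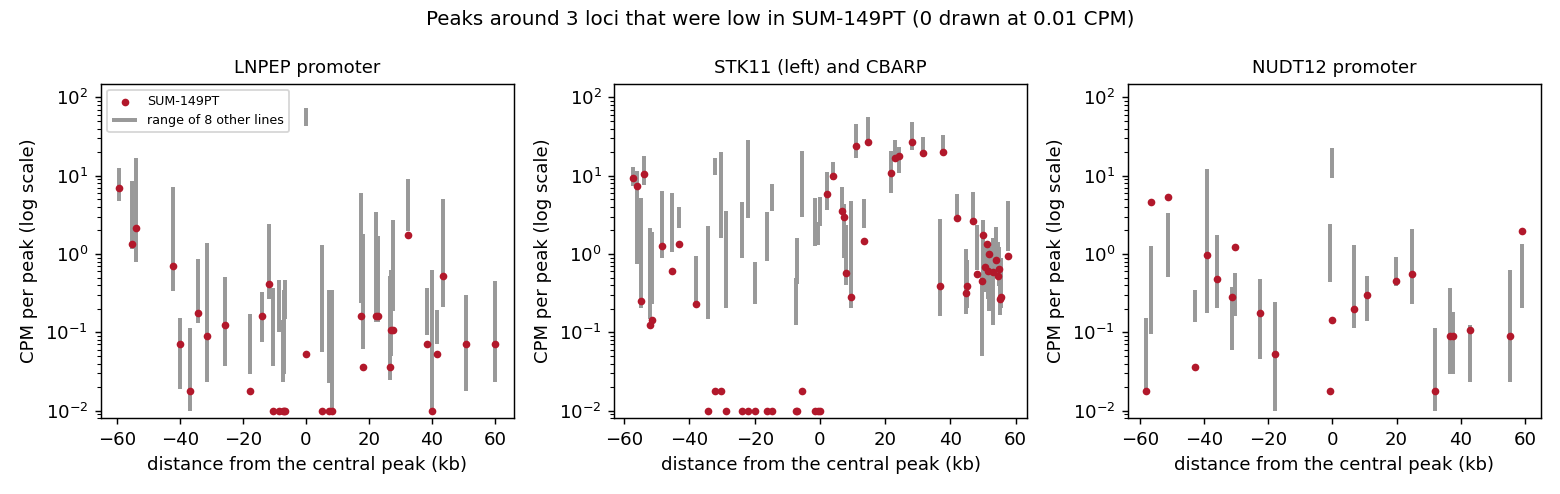
CPM of single peaks (log scale) by distance from a central peak at 3 loci, with SUM-149PT in red and the range of the 8 other lines as grey bars; 0 is drawn at 0.01 CPM. The LNPEP locus and that of STK11 and CBARP show runs with almost no counts in SUM-149PT. The run of STK11 and CBARP has open peaks on both sides, and that of LNPEP has mostly weak ones. At NUDT12 the start peak (0.143 CPM) and a weaker peak beside it lie below the range of the other lines.

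On the higher side, no gene passed the test without regional values. The first 2 genes named here were chosen after their values were seen. They had the largest regional log2 differences among genes with SUM-149PT as the highest line and a mean log2 CPM of at least 2 over lines. That limit leaves out weaker genes such as LOC107984963. PTGS2, the inducible cyclooxygenase that makes prostaglandins, had 25.0, 22.1 and 24.9 CPM in SUM-149PT against 0.65, 1.09 and 8.52 CPM in the other lines. The groups did not overlap, and the nearest line was HCC1143. The log2 difference was 3.37 ± 1.004 (SE, adjusted p = 0.9999, edgeR quasi-likelihood) and 3.35 with regional values (adjusted p = 0.918), and the peak at the start had 19.5 CPM in SUM-149PT against 0.264, 0.808 and 6.87 CPM. PNLIPRP3, a lipase-related gene, had 24.2, 20.6 and 25.4 CPM in SUM-149PT against 1.44, 2.28 and 5.04 CPM, with a log2 difference of 3.28 (adjusted p = 0.116, and 0.0875 with regional values, edgeR quasi-likelihood). Neither gene lay in a block, and the 9 treated SUM-149PT libraries kept both high, at 22.3 to 31.1 CPM for PTGS2 and 22.6 to 28.2 CPM for PNLIPRP3. ROR2, a receptor of WNT5A that was named from a gene list and lies in a higher block of chromosome 9, had 72.7, 70.5 and 71.4 CPM in SUM-149PT against 6.68, 16.4 and 34.9 CPM, a log2 difference of 1.99 ± 0.58 (SE) and 1.65 with regional values.

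A set of 3 genes best known from neurons, chosen after their values were seen, lay in higher blocks. TENM3, a teneurin that guides neuronal wiring, had 61.3, 62.0 and 61.3 CPM in SUM-149PT against 0.98, 3.90 and 28.7 CPM. CNTN1, a contactin, had 42.8, 40.5 and 39.8 CPM against 1.18, 3.36 and 17.1 CPM, and NEFL, the neurofilament light chain, had 25.9, 26.2 and 26.3 CPM against 0.87, 2.74 and 7.63 CPM. In each the SUM-149PT libraries were above every other line, and the log2 differences of 2.80, 2.74 and 2.87 were 2.12, 2.06 and 2.56 with regional values. The list of neural markers as a whole did not stand apart: of 15 tested, SUM-149PT was the highest line in 1 and the lowest in 1, and the median log2 difference was −0.23.

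Promoter peaks with at least 4 CPM in SUM-149PT and over 8 times the highest other line numbered 3, against 3 to 62 in each other line. A peak at chr2:112972224-112973579, which the authors annotate to the start of IL36G, an epithelial cytokine of the interleukin-1 family, but which lies before the RefSeq start at 112978006, had 15.8, 14.5 and 14.4 CPM in SUM-149PT against 0.32, 0.87 and 1.64 CPM. MACROD2-IT1 had 7.53, 7.98 and 7.08 CPM at its start against 0, 0.21 and 0.60 CPM, and LOC105379311 was the third. Weak peaks around IL36G, by the limit used at NUDT12, summed to 25.5 CPM in SUM-149PT, within the 6.55 to 33.6 CPM of the other lines. Those around MACROD2-IT1 summed to 40.77 CPM, above the highest other line at 31.15 CPM. Those around LOC105379311 summed to 42.33 CPM, above the highest other line at 36.34 CPM. Both of these starts lie in higher blocks, that of MACROD2-IT1 at 0.83 on chromosome 20 and that of LOC105379311 at 0.37 on chromosome 8. The one gained stretch was 76.1 kb at ATP8A2, a lipid flippase gene, where 10 peaks at chr13:25453742-25529823 summed to 78.8, 77.5 and 77.7 CPM in SUM-149PT against 2.15, 6.09 and 20.8 CPM.

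Among 264322 single peaks, 4 were higher (0.00151%) and 2 were lower (0.000757%) at an adjusted p under 0.05, the lower being those of LNPEP and STK11. The higher ones were all away from gene starts. An intronic peak of FHIT, a gene that spans a common fragile site, at chr3:60575797-60576179 in intron 4 of 9, had 3.19, 4.31 and 4.66 CPM in SUM-149PT against 0.0295, 0.0533 and 0.130 CPM, a log2 difference of 6.04 (adjusted p = 0.0265). A pair of neighbouring peaks at SORBS2, an adaptor of the actin cytoskeleton, included chr4:185587346-185588092 with 13.7, 12.9 and 13.1 CPM in SUM-149PT against 0.0590, 0.212 and 0.264 CPM (log2 difference 6.09, adjusted p = 0.0429). A peak upstream of RAB8B, a small GTPase of vesicle transport, at chr15:63178981-63179612, had 9.04, 8.91 and 8.16 CPM in SUM-149PT against 0.114, 0.203 and 0.281 CPM (log2 difference 5.53, adjusted p = 0.0418). FHIT and SORBS2 lie in regions with values of 0.58 and 0.72, and RAB8B in one of −0.43, far smaller than the peaks' own differences. These higher calls rest on the full panel: without any 1 of the 8 other lines, 0 or 1 peak was called higher, and 1 without SUM-149PT replicate 2.

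A further pair of peaks, at TTC39B and AKAP13, chosen after their values were seen, missed the adjusted threshold. That of TTC39B lies in the higher block of chromosome 9, in a region with a value of 1.29. Its log2 difference of 5.36 was 4.07 after this value was subtracted. A peak in intron 3 of 19 of TTC39B, chr9:15221777-15223398, had 33.6, 32.1 and 32.8 CPM in SUM-149PT against 0.114, 0.603 and 2.66 CPM (adjusted p = 0.277). A peak in intron 1 of 14 of AKAP13, an anchoring protein of protein kinase A, chr15:85406900-85408682, had 0 CPM in each SUM-149PT library against 2.79, 7.10 and 19.04 CPM (adjusted p = 0.198), although it lies in a region with a value of 0.94.

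Peaks open in SUM-149PT alone, with at least 2 CPM in each of its libraries and under 0.5 CPM in every other line, numbered 204, against 41 to 1539 for each other line. Of them, 1.47% lay within 1 kb of a gene start, against 7.25% of all tested peaks, and 41.2% lay in higher blocks, against 14.5% of all tested peaks. Peaks closed in SUM-149PT alone numbered 34, against 37 to 212 for each other line; 32.4% of these lay within 1 kb of a start and 32.4% in lower blocks, where 10.4% of tested peaks lay. These classes depend on fixed limits in CPM, and blocks move peaks across them.

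**Figure D5:**
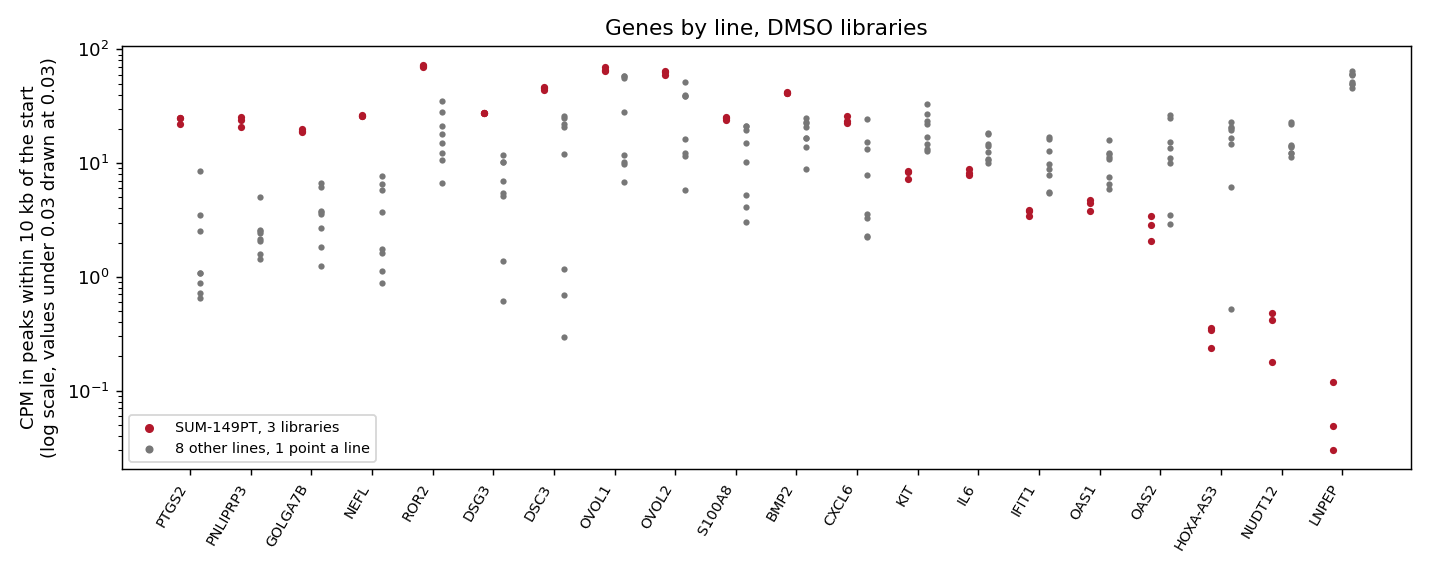
CPM within 10 kb of the start (log scale) for selected genes, with the 3 SUM-149PT libraries in red and the 8 other lines in grey. SUM-149PT lies below all other lines for LNPEP (at most 0.119 CPM against at least 46.2 CPM) and above all other lines for PTGS2 (at least 22.1 CPM against at most 8.52 CPM).

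Gene lists for breast lineages and pathways gave 0 called genes in each direction, over all 23 lists, so they are described by place and median. Of 25 epithelial junction genes, SUM-149PT was the highest line in 3 and the lowest in 0, with a median log2 difference of 0.35 against −0.10 for all genes. OVOL1, a repressor of mesenchymal genes, had 66.2, 70.1 and 64.2 CPM in SUM-149PT against 6.78, 19.95 and 58.8 CPM, and PKP1, a desmosomal plakophilin, had 95.8, 92.0 and 87.7 CPM against 27.5, 48.1 and 77.5 CPM. Of 24 basal and myoepithelial genes, SUM-149PT was the highest line in 2 and the lowest in 1, with a median of 0.33. The lowest was TP63, the master factor of basal epithelium, with 0.71, 0.95 and 1.70 CPM in SUM-149PT against 1.43, 4.04 and 37.2 CPM, where the replicates overlapped the lowest other line. Of 26 mesenchymal genes, it was the highest line in 1 and the lowest in 2, with a median of −0.11; of 22 mature luminal genes, in 1 and 1, with the same median; and of 20 luminal progenitor genes, in 0 and 1, with a median of −0.02. Of 24 genes of the cornified envelope, it was the highest line in 2 and the lowest in 0, with a median of 0.07.

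Of 28 cytokine and inflammation genes, SUM-149PT was the highest line in 4 and the lowest in 1, with a median of 0.29. Besides PTGS2 these were CXCL6, CXCL3 and IL11; CXCL6 and CXCL3 lie in a higher block of chromosome 4. IL11, a cytokine of the interleukin-6 family, had 39.0, 41.5 and 42.4 CPM in SUM-149PT against 12.4, 27.1 and 37.2 CPM, although its region was in a lower block. IL6 was on the other side, with 8.27, 8.94 and 7.89 CPM against 10.1, 13.3 and 18.3 CPM. Of 21 genes linked to inflammatory breast cancer, it was the highest line in 1 (JAG1, a Notch ligand, in the higher block of chromosome 20) and the lowest in 1, with a median of 0.04.

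The list with the largest share at the bottom was that of interferon response and antigen presentation genes. SUM-149PT was the lowest line in 6 of 13 tested (46.2%, against 9.76% of all genes) and the highest in 0, with a median of −0.83, and none of the 13 passed the test. IFIT1, an interferon-induced RNA-binding protein, had 3.87, 3.81 and 3.44 CPM in SUM-149PT against 5.46, 9.29 and 17.0 CPM. OAS1, a sensor of double-stranded RNA, had 4.70, 3.81 and 4.50 CPM against 5.91, 11.1 and 16.02 CPM, and MX1, an antiviral GTPase, had 14.9, 15.1 and 13.7 CPM against 18.6, 23.3 and 38.2 CPM. In each of these the SUM-149PT libraries were just below the lowest other line, and IFIT3, OAS2 and CD74 were lowest in SUM-149PT as well. None of the 6 lies in a block, and the list's median was −0.72 with regional values. Of the 28 genes of this list, 13 passed the filter on low values.

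The remaining lists gave smaller shares. SUM-149PT was the highest line in 2 and the lowest in 1 of 17 ERBB ligand and receptor genes (median 0.17), in 2 and 0 of 16 Notch genes (−0.17), in 4 and 1 of 23 WNT and TGF-beta family genes (0.13) and in 2 and 3 of 21 receptor kinase genes (−0.18). It was the highest in 2 and the lowest in 3 of 30 HOX genes (−0.19), in 2 and 5 of 49 developmental transcription factor genes (0.04), in 0 and 3 of 10 cancer-testis genes (−1.05) and in 1 and 4 of 25 genes of AP-1 and ERK feedback (−0.19). For 22 YAP and TEAD targets the counts were 1 and 0 (−0.19), for 37 genes often altered in copy number 4 and 3 (−0.17), and for 13 housekeeping genes 0 and 1 (−0.27). BMP2, a TGF-beta family ligand, had 41.9, 41.6 and 41.6 CPM in SUM-149PT against 8.83, 18.7 and 25.1 CPM, and its log2 difference of 1.203 was 0.83 with regional values.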

How the data were processed

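Counts per consensus peak (861439 peaks on hg38) were deposited by the authors as whole reads, not normalized; per the submitters' processing notes MACS2 and featureCounts were used, and no source used here names the aligner or says how duplicates and the Tn5 offset were treated. The table holds 78 libraries, of which 26 DMSO libraries entered; libraries of HCC1806 were not analysed here. Replicates were summed to 1 sample a line. Genes were the sums of peaks within 10 kb of the start the authors assign. Features with a mean of at least 0.5 CPM over the 9 lines were tested with edgeR 4.0.16 in R 4.3.3 (quasi-likelihood, robust, TMM), SUM-149PT against 8 lines, with Benjamini-Hochberg adjustment over all features; regional values were the median over peaks 100 kb to 5 Mb away (at least 50 peaks) and entered as offsets. DESeq2 1.42.0 was an alternative. Bins of 1 Mb held at least 20 peaks; values were log2(CPM + 0.25), centred, smoothed over 5 bins, and a block had at least 5 bins of at least 0.3. Named genes were the largest differences of each list, genes of copy number lists in blocks, and called features; others are said to be chosen later. The members and lists were chosen with earlier results of these data known. The test was tested on simulated data. Replicate numbers did not pair libraries (r of −0.105 to 0.0378). Intervals cover counting error only. Some results are not reported here.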

Additional observations from a re-analysis of the deposited data

Results flagged for a closer look

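For 83 named genes, the values of the 8 other lines were examined for 1 line far from the rest, by the gap to its nearest neighbour over the range of the 8 lines, against Dixon's 95% critical value; chance alone passes about 1 in 20 such groups, and 7 genes passed. Each concerns a line in the panel that SUM-149PT is set against. HCC1143 lay far above the other 7 lines for TCF4 (0.703), a mesenchymal transcription factor gene, and for PNLIPRP3 (0.554), where SUM-149PT was still the highest line. SUM-159PT lay far above for MAGEC2 (0.659), a cancer-testis gene. MDA-MB-231 lay far below for ALG1L (0.753), HOXA-AS3 (0.624) and ZNF229 (0.603), genes in which SUM-149PT was lower still. HCC1395 lay far below for SNORD3B-2 (0.532), a small nucleolar RNA gene with near-identical copies, whose counts are uncertain for that reason, as are those of ALG1L.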

How the results depend on the processing

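With RLE scaling, with HCC1395 DMSO replicate 3 kept and without each SUM-149PT replicate, the counts of genes stayed within 1.5 times (6 or 7 lower, 2 of them focal). Total-count scaling gave 3 lower genes, 4 epithelial lines as the panel gave 2 lower genes and 0 higher and 0 lower peaks, and a window of 50 kb or the libraries treated with both drugs (chosen for the stretches and open peaks after seeing the data, as was keeping HCC1395 replicate 3) gave 1 higher gene each. DESeq2 called 29 genes higher and 94 lower, 15 and 70 focal, and 701 peaks higher and 230 lower; the cause was not tested. Treating each library as a sample called 9266 genes higher and 8394 lower (7271 and 5545 focal; 95819 and 82667 peaks), and 9252 and 8412 (7268 and 5553; 95848 and 82777) with the replicate number as a block, since replicate libraries and not lines then set the spread; the numbers did not pair the libraries. Without a filter 0 peaks were higher and 1 lower, and at a mean of at least 2 CPM 0 were higher; both settings test another set of peaks. A regional window of 10 Mb gave 6 focal lower genes. Leaving out 1 line, 1 replicate number or 1 SUM-149PT replicate gave 0 to 1 higher and 1 to 7 lower genes, 0 to 1 and 1 to 5 focal, and 0 to 4 higher and 1 to 2 lower peaks; 1 lower gene was left without HCC1937. Blocks covered 10.3% of bins at a pseudocount of 1 CPM, 45.1% at a threshold of 0.2 and 8.87% at 0.5, since these settings redefine a block. Narrow lost stretches numbered 7 to 9 and peaks open in SUM-149PT alone 215 to 240 without 1 SUM-149PT replicate. Of 83 named genes, the log2 difference turned positive with a 50 kb window for GRHL1 (0.22), RB1 (0.53), TCF4 (1.46), TP63 (0.007) and ZNF217 (0.095), and for MYCN without MDA-MB-468 (0.175, otherwise down to −0.70 without 1 line); none of these was called. Counting limits the near-empty runs to about 3 counts, and the lone SUM-149PT sample limits every test.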

Other observations

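Zinc finger genes of chromosome 19 were low in SUM-149PT as a set, and the set was chosen after its values were seen. SUM-149PT was the lowest of 9 lines in 57 of 192 such genes (29.7%, against 9.76% of all genes), and the log2 difference was below 0 in 170 of them, with a median of −0.57. Other genes of chromosome 19 were lowest in SUM-149PT in 17.5% of 1195, with a median of −0.32, and zinc finger genes of other chromosomes in 6.06% of 198, with a median of 0.02. With regional values the median of the chromosome 19 set was −0.07, so most of the shift was shared with peaks around them. SUM-159PT was the lowest line in 55 and HCC1143 in 34 of the same genes, and the other lines in 3 to 13. Adjacent members share regions and near-identical sequence, so they are not independent.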
